A study of Mus musculus with 24 samples.

Results

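Promoters that carried both H3K4me3 and H3K27me3 in all 4 populations of supporting cells and their precursors, from both sexes and both stages, are described here. A promoter was the window of 2 kb on each side of an annotated transcription start site (TSS), with 1 TSS per gene of the mouse mm9 (NCBIM37) annotation on chromosomes 1 to 19. A window was taken as bivalent in a population when at least 1 bp of it lay under an H3K4me3 peak and at least 1 bp under an H3K27me3 peak. Members were chosen by these same peaks, as windows bivalent in each of the 4 populations, and 3623 of 34653 windows met the rule. The presence of the marks is therefore a description of the choice, while the gene functions and the sequence were not part of it. The widths of the marked regions were no criterion, although a wider region can meet the rule more easily.

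H3K4me3 marks the starts of genes that are transcribed or held ready for transcription, and H3K27me3 is laid down by Polycomb repressive complex PRC2 and read by CBX proteins of PRC1. Promoters with both marks were described in embryonic stem cells at genes of development, where the pair is held to keep genes silent but open to later activation. In the early gonad the supporting cell precursors can become Sertoli cells, which organise the testis, or pregranulosa cells of the ovary, and each fate requires that the genes of the other stay silent.

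The study profiled histone H3, H3K4me3 and H3K27me3 by ChIP-seq in mouse gonadal cells of strain background C57BL/6 x CD1, with 2 replicates per antibody and population and 24 samples in all. XY and XX progenitor cells came from male and female SF1-eGFP embryos at E10.5, Sertoli cells from male Sox9-CFP embryos at E13.5 and pregranulosa cells, labelled as granulosa cells, from female TESM-CFP embryos at E13.5. Gonads were dissected away from the mesonephros and cells were sorted on the fluorescent reporter, so each population is defined by the promoter or enhancer that drives its transgene, and stage is joined to a change of reporter in both sexes. For each mark and population 1 peak list was deposited. The series description gives each list as made from both replicates, whereas the study's methods describe peak calling on each replicate, and the description was followed. With 1 list each there is no spread between replicates and no test between populations, and the intervals below (95%, exact binomial) cover counting error only.

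The lists differed in depth. The H3K4me3 lists rest on 10162534 tags in XY progenitors, 49254553 in XX progenitors and 31104760 in Sertoli cells. The H3K27me3 lists rest on 6470151, 33185400 and 44446456 tags in the same order. The depth of both pregranulosa lists is unknown, because these lists have no header. Overlapping peaks of a list were joined into regions, and the width of a mark at a promoter is that of the widest region touching its window. At members the narrowest H3K4me3 region was 1001 bp and the narrowest H3K27me3 region 5001 bp in every list, the size of a single peak window.

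Bivalent promoters made up a similar share of all windows in each population. At E10.5 they numbered 5414 in XY progenitors (15.6% of windows) and 5632 in XX progenitors (16.3%). At E13.5 they numbered 5063 in Sertoli (14.6%) and 5188 in pregranulosa cells (15%). The 3623 windows bivalent in all 4 populations are 10.46% of all windows, with an interval from 10.1% to 10.8%. They form 66.9% of the XY progenitor set, 64.3% of the XX progenitor set, 71.6% of the Sertoli set and 69.8% of the pregranulosa set, so most promoters bivalent in any single population belonged to the common set. Of the 4971 promoters bivalent in both progenitor populations, 72.9% (71.6% to 74.1%) were also bivalent in both populations of E13.5. Read backward in time the share was higher, since 86.0% of the 4212 promoters bivalent in both E13.5 populations had been bivalent in both progenitors.

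Other windows were bivalent in only some of the populations, 1319 in 1 population, 1171 in 2 and 1048 in 3. Among the 1048 windows that fell short in a single population, that population was Sertoli in 522, or 49.8%. Of these 522 windows, 383 had H3K4me3 alone in Sertoli cells and 138 had H3K27me3 alone. Pregranulosa cells were the exception at 238 windows, 231 of them with H3K4me3 alone. XY progenitors were the exception at 219, split between 103 with H3K4me3 alone and 113 with H3K27me3 alone. XX progenitors were the exception at 69, with H3K4me3 alone at 67. A promoter that missed the set at E13.5 had therefore mostly lost H3K27me3. In XY progenitors, which have the shallowest lists among those of known depth, either mark could be the missing mark. The part of depth in these counts was not tested.

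The edge of the rule can be seen in a few genes. Just inside it, Napa, which encodes the membrane fusion factor alpha-SNAP, had 9 bp of its window under H3K27me3 in XY progenitors. Npm3, a histone chaperone gene, had 12 bp under H3K27me3 in Sertoli cells, and Abca14, a transporter gene, had 20 bp under H3K4me3 in XY progenitors. Just outside it, the window of Eml2, a microtubule-associated protein gene, lay 16 bp from the nearest H3K4me3 region in Sertoli cells. Smyd5, a methyltransferase gene, lay 23 bp from H3K27me3 in pregranulosa cells, and Ap1g2, a gene of vesicle coats, lay 24 bp from H3K27me3 in XY progenitors. Few members sat this close to the edge. Only 12 of the 3623 members had 50 bp or less of the window under some mark in some population, 24 had 100 bp or less and 137 had 500 bp or less.

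The listed Sertoli genes had H3K4me3 alone in Sertoli cells, as the label calls for. Precursor markers were bivalent in both progenitor populations, and pregranulosa markers were divided in pregranulosa cells. Nr5a1, Wt1 and Gata4, transcription factors of the supporting cell precursors, were bivalent in both progenitor populations and had H3K4me3 alone in both E13.5 populations. Lhx9 and Emx2, the other 2 precursor markers, had H3K4me3 alone in pregranulosa cells and were bivalent elsewhere. The Sertoli genes Sox9, Dmrt1 and Dhh had H3K4me3 alone in Sertoli cells and were bivalent in the other populations, while the Sertoli product gene Ptgds carried H3K4me3 in Sertoli cells only. Amh, the hormone gene of Sertoli cells, had H3K4me3 in every population and H3K27me3 in pregranulosa cells alone. Wnt4 and Rspo1, the Wnt signals of the ovary, had H3K4me3 alone in pregranulosa cells and were bivalent elsewhere. The other 3 pregranulosa markers, Foxl2, Fst and Irx3, still had H3K27me3 in the window in pregranulosa cells and so belong to the members. At Fst it covered 1284 of the 4001 bp of the window there, against all 4001 bp in the other populations. Of the markers of other cells, Kdr of endothelium, Insl3 of Leydig cells and Pax2, Pax8 and Lhx1 of the nephric epithelium were bivalent in all 4 populations. The endothelial genes Pecam1, Tek and Tie1, the blood genes Ptprc and Cd68 and the germ cell genes Ddx4 and Mael carried neither mark in any population. Dazl, a germ cell gene, and Star, a gene of steroid synthesis, had H3K4me3 alone in all 4, as did Upk3b of the coelomic epithelium. Others varied. Cdh5 of endothelium and Cyp17a1 of steroid synthesis had H3K4me3 in pregranulosa cells only, Cyp11a1 in XX progenitors only and Hsd3b1 in all but XY progenitors. The germ cell gene Pou5f1 had H3K27me3 in all 4 and was bivalent in Sertoli cells, and Dppa3 was bivalent in XX progenitors and Sertoli cells and had H3K4me3 alone in pregranulosa cells. Hba-a1 of blood had H3K27me3 alone in all 4, and Krt19 of epithelium was bivalent in all but Sertoli cells. The part of other cells in the sorted populations was not tested.

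Regulators of development stood at the head of the members. Protein-coding genes supplied 2997 members, or 14% of the 21418 protein-coding windows and 82.7% of the set. Across families of developmental transcription factors 210 of 347 genes were members, a share of 60.5% (55.2% to 65.7%). Signalling genes followed with 104 of 210 (49.5%), genes of the membrane and of neurons with 177 of 566 (31.3%) and matrix genes with 27 of 97 (27.8%). Ribosomal protein, proteasome and complex I genes together reached 5.66% (9 of 159), with 6.40% (33 of 516) when the Zfp zinc finger genes are counted with them, and tissue-restricted receptor and keratin genes 0.207% (3 of 1446). The share was thus highest at regulators of development and lower at genes used by all cells and at genes of a single tissue. Genes were counted by annotation record, so a symbol with several records counts more than once. By symbol the other homeobox genes gave 53 of 77, the Fgf ligands and receptors 11 of 24 and the proteasome genes 3 of 38. These lists hold a small part of the members, and 2443 protein-coding members (81.5%) are in none of the 6 classes.

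Among transcription factors, the families differed in how many of their genes were members. All 6 Iroquois homeobox genes were members, as were 11 of 14 Nkx genes, 7 of 9 Pax genes and 9 of 12 LIM homeobox genes. The other homeobox genes gave 56 of 80, the proneural and related bHLH genes 25 of 36, the Zic and Gli genes 7 of 11 and the Forkhead genes 24 of 40. Gata genes gave 3 of 5, T-box genes 9 of 16 and Hox cluster genes 20 of 40. The Dmrt genes gave 3 of 7, the nuclear receptor genes 18 of 43 and the Sox genes 7 of 18. Several of these families are small, and differences between them were not tested. The Zfp zinc finger genes, a large family with many repressors of transposons, gave 24 of 357 and had H3K4me3 alone in all 4 populations at 247.

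H3K27me3 regions were wide at most families of these regulators. The median H3K27me3 region over the 210 transcription factor members was 27057 bp in XY progenitors, 26581.5 bp in XX progenitors, 32976.5 bp in Sertoli cells and 31814 bp in pregranulosa cells. Over all protein-coding members the medians were 9401, 10192, 12800 and 11414 bp. The regulators thus had wider medians than the protein-coding members at large in each population. Of 369 protein-coding members with an H3K27me3 region of at least 20000 bp in all 4 populations, 129 (35.0%) were in the transcription factor lists. At 50000 bp or more it was 30 of 52 (57.7%), whereas the lists supply 7.01% of the protein-coding members. Genes that share a region were counted separately, so these counts overstate the number of separate wide domains. Several Hoxd genes and Evx2, for example, shared regions of 62925, 63198, 130167 and 65332 bp in the same order of populations.

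Some of these wide domains differed little between the populations. Nkx2-5, a factor of the heart, had an H3K27me3 region of 44489 bp in XY progenitors, 42555 bp in XX progenitors, 43487 bp in Sertoli cells and 42684 bp in pregranulosa cells. The region of Nkx2-5 hardly differed between the populations, although the gene belongs to an organ outside the gonad. Sox2, a factor of pluripotent and neural progenitor cells, had 42775, 42186, 48331 and 47695 bp in the same order. Zic4, a factor of the cerebellum, had 83945, 81776, 87473 and 86309 bp, and Nr2e1, an orphan receptor of neural stem cells, had 82422, 80714, 84008 and 84341 bp. H3K4me3 at these genes was narrow in most lists, from 1001 bp in XY progenitors at Zic4 and Nr2e1 to 3805 bp in XX progenitors at Sox2 and 5707 bp in XX progenitors at Nr2e1.

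Others of these factors had regions that moved. Pax3, a factor of neural crest and muscle, had an H3K27me3 region of 137523 bp in XY progenitors, 126735 bp in XX progenitors, 99372 bp in Sertoli cells and 106016 bp in pregranulosa cells, narrower in both E13.5 populations. Foxf1a, a factor of the mesenchyme, had an H3K27me3 region of 90362 bp in XY progenitors, 171232 bp in XX progenitors, 346218 bp in Sertoli cells and 52771 bp in pregranulosa cells. Tbx3, a factor of limb and mammary gland, had 47432, 55251, 122066 and 61605 bp, so that Foxf1a and Tbx3 had their widest region in Sertoli cells. Pax2, a factor of the nephric duct that lies beside the gonad, had 59669, 55853, 68038 and 150012 bp, with its widest region in pregranulosa cells. Its H3K4me3 region was 6577, 17114, 2862 and 3433 bp, narrower in both E13.5 populations than in both progenitors. Gata2, a factor of blood and of the urogenital ridge, showed the same fall of H3K4me3, from 8213 and 13354 bp in XY and XX progenitors to 1684 and 2302 bp in Sertoli and pregranulosa cells. Its H3K27me3 region changed little, at 25484, 27433, 30419 and 31306 bp.

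The Hox genes, which set position along the body axis, mostly narrowed in H3K4me3 in the XX cells and were divided in the XY cells. The median H3K4me3 region over the 20 Hox members was 5385.5 bp in XY progenitors and 27849.5 bp in XX progenitors, against 2746.5 bp in Sertoli cells and 3167 bp in pregranulosa cells. The median H3K27me3 region was 62925 and 63198 bp in the progenitors and 132130 and 114136 bp at E13.5. Gene by gene, the median log2 ratio of H3K4me3 width was -0.36 (-1.49 to 0.15) in the XY cells, where 9 of the 20 widened and 10 narrowed, and -2.48 (-3.00 to -1.03) in the XX cells, where 19 narrowed. Hoxd11, a gene of the posterior trunk and limb, widened from 1801 to 3829 bp in the XY cells and narrowed from 5443 to 2103 bp in the XX cells. The median log2 ratio of H3K27me3 width was 1.05 in the XY cells, where 14 of the 20 at least doubled, and 0.08 in the XX cells, where 8 did. Hox genes of a cluster share regions, so the 20 are not separate observations, and the counts and intervals overstate their number. The value 1.05 is that of the region shared by Hoxd13, and 0.08 that of the region shared by Hoxc10. Hoxa9 (TSS at chr6:52181088), a gene of the posterior trunk, lay in an H3K4me3 region of 32136 bp in XY progenitors and 50567 bp in XX progenitors, and had 1001 bp in Sertoli and 2140 bp in pregranulosa cells. Its H3K27me3 region was 60192, 64389, 191902 and 193821 bp. H3K27me3 around Hoxa9 was thus far wider, and H3K4me3 far narrower, in both populations of E13.5. Hoxc8, of the trunk, fell in H3K4me3 width from 14100 and 53971 bp to 3006 and 3573 bp while its H3K27me3 region stayed between 107520 and 134093 bp in all 4 lists. Hoxd13, the gene of the most posterior structures, had a narrow H3K4me3 region throughout, at 2074, 3185, 2153 and 2158 bp, and H3K27me3 regions of 62925, 63198, 130167 and 65332 bp. Its H3K27me3 region was widened in Sertoli cells alone, where it reached as far as Hoxd1.

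Signalling genes were members from the ligand to the antagonist. Secreted Wnt antagonist and R-spondin genes gave 14 of 18, Wnt ligands 12 of 19 and Frizzled receptors 2 of 10. The intervals of the ligands (38.4% to 83.7%) and of the receptors (2.52% to 55.6%) overlap, and the difference was not tested. Notch pathway genes gave 12 of 21, Bmp and activin antagonists 7 of 13, TGF-beta family ligands 16 of 32, Fgf ligands and receptors 12 of 25, retinoic acid genes 6 of 13 and Hedgehog ligands and receptors 4 of 10. Guidance genes gave 10 of 22 for ephrins and their Eph receptors and 9 of 27 for semaphorins and plexins.

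Among the ligands, Ihh, the Hedgehog signal of cartilage and gut, had H3K27me3 regions of 34025 bp in XY progenitors, 36271 bp in XX progenitors, 133964 bp in Sertoli cells and 33360 bp in pregranulosa cells. Wnt10b, a ligand of the canonical Wnt pathway, had 49820, 50865, 44761 and 45711 bp, so its domain was nearly constant. Wnt7a, a ligand of the female reproductive duct, had 25615, 22270, 33948 and 29064 bp. Fgf8, a signal of growth zones, had 22628, 24734, 23979 and 43649 bp. Of the antagonists, Dkk1, which blocks the Wnt coreceptors, had 20197, 20224, 20461 and 21867 bp, and Nog, which binds Bmp ligands, had 10311, 10293, 31783 and 17857 bp. Dkk1 thus kept its width in all 4 lists, and Nog had a wider region in both E13.5 populations than in both progenitors. Cyp26a1, an enzyme that degrades retinoic acid, shared 1 region with Cyp26c1 of 28272, 28084, 27643 and 35653 bp. Fzd6, a receptor of planar polarity, had regions of 6265, 6252, 6263 and 9009 bp, near the smallest possible width except in pregranulosa cells.

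Genes of excitable cells were a further group. Glutamate and GABA receptor genes gave 31 of 47, potassium channels 53 of 94, sodium and calcium channels 17 of 39 and classical and other cadherins 11 of 23. Solute carriers gave 65 of 339, closer to the 14% of all protein-coding genes. The 177 members in these lists had H3K27me3 regions of moderate width, with medians of 9548 bp in XY progenitors, 10101 bp in XX progenitors, 12646 bp in Sertoli cells and 11475 bp in pregranulosa cells. Some were far wider. Cdh22, a cadherin of the brain, held the widest member region of both progenitor populations, at 183925 bp in XY and 185686 bp in XX cells, with 187373 bp in Sertoli and 128167 bp in pregranulosa cells. Grin1, the obligate subunit of NMDA receptors, had 39291, 39107, 43220 and 40931 bp. None of the 24 clustered protocadherin genes was a member, which at this number allows a share of up to 14.2%, and 15 of them carried neither mark in any population.

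Matrix genes were split, with collagens at 12 of 41 and Adam and Adamts proteases at 15 of 56. Col13a1, a transmembrane collagen, had H3K27me3 regions of 19154, 13025, 24796 and 13978 bp, wider in the XY than in the XX population at both stages. Genes for functions of every cell mostly had H3K4me3 alone. Ribosomal protein genes gave 3 members of 78, with H3K4me3 alone in all 4 populations at 69, and complex I genes of the respiratory chain gave 2 of 41, with H3K4me3 alone at 35. Proteasome genes gave 4 of 40, with H3K4me3 alone at 33. Psmb8 and Psmb9, which encode subunits of the immunoproteasome rather than of the standard particle, shared an H3K27me3 region of 38590, 39812, 92184 and 54530 bp in the major histocompatibility locus. Olfactory receptor genes gave 2 of 1081 and carried neither mark in any population at 1018, vomeronasal receptor genes gave 1 of 319, and keratin genes gave 0 of 46, which allows up to 7.71%. Unlike the olfactory receptor genes, few of the keratin genes, 8 of 46, carried neither mark in all 4 populations.

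Genes of the Polycomb machinery were members in 6 of 26 cases (23.1%, 8.97% to 43.6%), an interval that includes the 14% of all protein-coding genes. Cbx8, which encodes a reader of H3K27me3, had an H3K27me3 region of 65761 bp in XY progenitors, 64986 bp in XX progenitors, 44662 bp in Sertoli cells and 35402 bp in pregranulosa cells, narrower at E13.5 in both sexes. Cbx2, another reader gene, was not a member, because its window had no H3K27me3 in XY progenitors, and its regions in the other lists were 5001 bp in XX progenitors, 6256 bp in Sertoli and 6435 bp in pregranulosa cells. Bmi1, a subunit of PRC1, had a steady region of 46609, 41390, 43782 and 42728 bp.

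The ovary and testis pathways met the set unequally. Of 18 ovary pathway genes 10 were members, while of 21 testis pathway genes (22 records, since Map3k4 has 2) 1 was. At the start, 15 of the 18 ovary genes and 12 of the 21 testis genes were bivalent in both progenitor populations. All 15 of the ovary genes stayed bivalent in Sertoli cells, and 5 of them (Axin2, Bmp2, Rspo1, Sp5 and Wnt4) had H3K4me3 alone in pregranulosa cells. All 12 of the testis genes stayed bivalent in pregranulosa cells, and 11 had H3K4me3 alone in Sertoli cells. Of the 4110 protein-coding genes bivalent in both progenitors, 77.9% were bivalent in Sertoli and 83.5% in pregranulosa cells. Most genes with that start thus also kept both marks, and the full counts above rest on only 15 and 12 genes. Of the same 4110 genes, 774 had H3K4me3 alone in Sertoli cells and 648 in pregranulosa cells. Bivalency was lost in Sertoli cells alone at 91.7% (61.5% to 99.8%) of the 12 testis genes, against 10.6% of the 4110. It was lost in pregranulosa cells alone at 33.3% (11.8% to 61.6%) of the 15 ovary genes, against 5.01%. These differences from the 4110 genes were not tested. Sertoli cells had H3K4me3 alone at more of their own pathway than pregranulosa cells did at theirs. The difference between the sexes was not tested.

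The ovary genes that stayed bivalent in pregranulosa cells by the rule used here still differed between the sexes in width. Foxl2 (TSS at chr9:98856026), which maintains granulosa identity, had H3K4me3 regions of 1943 bp in XY progenitors, 6315 bp in XX progenitors, 3236 bp in Sertoli cells and 14012 bp in pregranulosa cells. Its H3K27me3 region was 32553, 40185, 40986 and 35320 bp. The H3K4me3 region of Foxl2 was thus widest in pregranulosa cells, the line whose identity the gene maintains, inside an H3K27me3 region of similar width in all populations. The regions carry no level of enrichment, so a fall of H3K27me3 within a region, at the TSS of Foxl2 or elsewhere, could not be seen in these widths. The paper reports such a loss in pregranulosa cells, at the TSS and gene body of Foxl2 and at the TSS of Lef1. These genes count as bivalent here because deposited H3K27me3 regions covered 4001 bp of the Foxl2 window and 3635 bp of the Lef1 window there. Irx3, an Iroquois factor of the ovary, had H3K4me3 regions of 3635, 10162, 6247 and 11142 bp and H3K27me3 regions of 25370, 25715, 23519 and 14518 bp. Irx5, its neighbour in the same cluster, had H3K4me3 regions of 6016, 6996, 6385 and 15046 bp. Lef1, which takes Wnt signals to the genome, had H3K27me3 regions of 14357, 14944, 23607 and 7523 bp, wider after E10.5 in the XY and narrower in the XX line. Wnt2b, a Wnt ligand, had H3K27me3 regions of 11799, 11444, 12727 and 6302 bp, and its H3K4me3 region was 5068, 4972, 2109 and 5164 bp. Fst, an antagonist of activin, had H3K27me3 regions of 10285, 7506, 14047 and 6737 bp.

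The remaining ovary members did not follow this course at every mark. Lgr5, a receptor for R-spondins, narrowed in H3K27me3 in both sexes, with 8788 and 10070 bp in the progenitors and 6367 and 7750 bp at E13.5. Wnt5a, a ligand of noncanonical signalling, widened in both, with 15643 and 15820 bp before and 25023 and 18730 bp after. Msx1, a homeobox factor downstream of Bmp signals, had H3K27me3 regions of 31979, 56878, 35091 and 41613 bp, and Msx2, its paralogue, had 26238, 28922, 47166 and 36950 bp. Over the 10 ovary members the median log2 ratio of H3K27me3 width from E10.5 to E13.5 was 0.23 in the XY cells and -0.28 in the XX cells. With 10 genes the intervals of these medians reach from -0.11 to 0.72 and from -0.86 to 0.24, and each includes 0. Gene by gene, 9 of the 10 had the higher ratio in the XY cells, with Lgr5 the exception, as had 66.6% of all members (65.0% to 68.1%). The interval for 9 of 10 is 55.5% to 99.7%, which includes that share.

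The single testis member was Erbb4, which encodes a receptor of neuregulins (TSS at chr1:69154633). Its H3K27me3 region was 13643 bp in XY progenitors, 13931 bp in XX progenitors, 6348 bp in Sertoli cells and 17367 bp in pregranulosa cells. Its H3K4me3 region was 3889, 4509, 4373 and 4556 bp. Erbb4 thus kept a narrowed H3K27me3 region in Sertoli cells where the other 11 testis genes that were bivalent in both progenitors had none in the window.

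Some genes of the early gonad left the set in both sexes. Of 18 genes, 11 were bivalent in both progenitor populations, and 4 of these had lost H3K27me3 in both E13.5 populations. Those are Nr5a1, Wt1, Gata4 and Zfpm2. Their share is 36.4%, with an interval of 10.9% to 69.2%. Of the 4110 protein-coding genes with that start, 11.5% lost bivalency in both, a share inside that interval. Another 3, Lhx9, Emx2 and Podxl, had H3K4me3 alone in pregranulosa cells and stayed bivalent in Sertoli cells. That is 27.3% (6.02% to 61.0%), against 5.01% of the 4110 genes that lost bivalency in pregranulosa cells alone. These differences were not tested. The 4 members kept both marks, Lhx1, Osr1 and Tcf21 among them. Osr1, a factor of the intermediate mesoderm, had H3K4me3 regions of 4088 bp in XY progenitors, 9999 bp in XX progenitors, 1566 bp in Sertoli cells and 2086 bp in pregranulosa cells. Tcf21, a factor of gonadal interstitial precursors, had 10075, 12246, 4978 and 3290 bp, and Lhx1, a factor of the nephric duct, had 5986, 11023, 3066 and 4930 bp. All 3 genes narrowed in H3K4me3 and widened in H3K27me3 in both sexes, Lhx1 from 24034 and 24843 bp to 41522 and 34086 bp of H3K27me3.

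Genes listed by the study as specific to 1 sex were asked the same question on a larger scale. Of 1340 Sertoli-specific genes 124 were members (9.25%), and of 1082 pregranulosa-specific genes 148 (13.7%), the latter near the 14% of all protein-coding genes. Of the 309 Sertoli-specific genes bivalent in both progenitors, 40.1% (34.6% to 45.8%) were members, against 72.9% of the 4110 protein-coding genes with that start. Of these 309, 114 (36.9%) lost bivalency in Sertoli cells alone, 3 (0.971%) in pregranulosa cells alone and 68 (22.0%) in both. Over the 4110 genes the shares were 10.6%, 5.01% and 11.5%. Of the 259 pregranulosa-specific genes bivalent in both progenitors, 57.1% (50.9% to 63.3%) were members, 40 (15.4%) lost bivalency in pregranulosa cells alone, 14 (5.41%) in Sertoli cells alone and 57 (22.0%) in both. Relative to the 4110 genes, loss was thus more frequent in the sex that a list is named for and in both, and less frequent in the other sex alone. The lists were matched by symbol and counted by annotation record. The study's supplement gave 1408 Sertoli-specific and 1164 pregranulosa-specific names, the same as the study's totals, of which 1327 and 1072 matched a protein-coding gene.

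The members of these lists also differed from the members at large in their change of width. The 124 Sertoli-specific members widened in H3K4me3 from a median of 2242 bp in XY progenitors to 3280.5 bp in Sertoli cells, a median log2 ratio of 0.36 (0.28 to 0.58). Over all protein-coding members the same ratio was 0.15. H3K4me3 at least doubled at 22 of the 124 genes (17.7%) in the XY cells, against 4.80% of all protein-coding members, and at 1 (0.806%) in the XX cells, against 0.634%. Their H3K27me3 regions had a median log2 ratio of 0.00 (-0.04 to 0.18) in the XY cells, against 0.33 for all protein-coding members, and 0.19 in the XX cells, against 0.17. The 148 pregranulosa-specific members had a median log2 ratio in the XX cells of 0.05 (-0.03 to 0.13) for H3K4me3, against -0.13 over all protein-coding members, and 0.01 (-0.03 to 0.09) for H3K27me3, against 0.17. In the XY cells they were at 0.06 for H3K4me3 and 0.33 for H3K27me3. H3K4me3 at least doubled at 11 of the 148 genes (7.43%) in the XX cells, against 0.634% of all protein-coding members, and at 5 (3.38%) in the XY cells, against 4.80%. In each sex the genes listed for it had a higher log2 ratio of H3K4me3 width and a lower one of H3K27me3 width than the members as a whole, on the scale of base pairs and within a set chosen for keeping both marks. Among the members named after their values were seen, Islr2, a leucine-rich repeat gene of neurons, went from 2123 to 12172 bp of H3K4me3 in the XY cells and from 10149 to 1900 bp in the XX cells. Rnf43, which removes Wnt receptors from the cell surface, went from 1771 to 5136 bp in the XX cells. Bmp1, a protease that processes matrix, went from 28880 to 5001 bp of H3K27me3 in the XX cells.

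Across all members H3K27me3 covered far more ground than H3K4me3. The median H3K27me3 region was 9891 bp (9586 to 10144) in XY progenitors, 10307 bp (10215 to 10432) in XX progenitors, 13065 bp (12855 to 13315) in Sertoli cells and 11560 bp (11465 to 11733) in pregranulosa cells. The median H3K4me3 region was 2010 bp (1980 to 2052), 2806 bp (2763 to 2864), 2267 bp (2221 to 2303) and 2568 bp (2521 to 2611). H3K4me3 was narrower at members than at the 9569 promoters with H3K4me3 alone in all 4 populations, whose medians were 2401, 3169, 2835 and 3218 bp. H3K27me3 was wider at members than at the 1348 promoters that were bivalent in both progenitors and left the set, whose medians at E10.5 were 6354 bp in XY and 7548.5 bp in XX progenitors. It was narrower at members than at the 332 promoters with H3K27me3 alone in all 4 populations, whose medians were 11285.5, 11729, 18143.5 and 13174.5 bp. That difference was largest in Sertoli cells, and in XY progenitors the intervals of the medians overlap. Ranked within its own list, the median member region stood at percentile 74.3 for H3K27me3 in XY progenitors, 69.8 in XX progenitors, 76.0 in Sertoli and 69.8 in pregranulosa cells. The order of widths was shared between populations, with Spearman's rho across the 3623 members between 0.71 and 0.89 for H3K27me3 and between 0.66 and 0.77 for H3K4me3. Members are not independent here, since neighbouring genes share regions.

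Width at E10.5 went with later membership for H3K27me3 and not for H3K4me3. The 4971 promoters bivalent in both progenitors were ordered by the narrower of their progenitor regions and split into 5 groups of about equal number. In the narrowest group, at 5001 bp, 46.7% (43.5% to 49.8%) were members. The share rose through 69.8%, 75.6% and 85.0% to 87.2% (85.0% to 89.2%) in the widest group, from 15295 bp upward. In 5 groups by H3K4me3 width the shares were 71.3%, 74.3%, 76.8%, 72.1% and 69.9%, without a trend. Regions of the smallest width may touch a window or not by small shifts of their edges, and the part of this in the trend was not tested.

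From E10.5 to E13.5 the H3K27me3 regions of the members widened in base pairs in both sexes, and in the XY cells by less than those of other promoters. The median log2 ratio of Sertoli over XY progenitor width was 0.32 (0.31 to 0.34), against 0.48 (0.43 to 0.52) over the 1388 other promoters with H3K27me3 at both stages and 0.35 over all 5011. The ratio of pregranulosa over XX progenitor width was 0.15 (0.14 to 0.17), against 0.14 (0.12 to 0.18) over the 1471 others and 0.15 over all 5094. The backgrounds below are over all promoters with the mark at both stages, members included. In the XY cells 2814 members (77.7%) widened, where the background was 77.7%, and in the XX cells 2492 (68.8%), where it was 67.8%. At least a doubling was seen at 540 members (14.9%, 13.8% to 16.1%) in the XY cells, with a background of 17.7% and a share of 25.1% (22.9% to 27.5%) at the other promoters. In the XX cells it was seen at 187 members (5.16%, 4.46% to 5.93%), with a background of 6.38% and a share of 9.38% (7.94% to 11.0%) at the others. A fall of at least 2-fold was seen at 61 members (1.68%, background 1.82%) in the XY and at 88 (2.43%, background 2.51%) in the XX cells. The share that widened was thus near its background in both sexes, while a doubling was less frequent at members than at other promoters. Members also began wider, with medians of 9891 bp in XY and 10307 bp in XX progenitors. Other promoters bivalent in the same population had medians of 6284 and 7521 bp. The part of starting width in these differences was not tested. When each width was ranked within its own list, the median change of percentile was -0.123 points in the XY cells and -0.173 points in the XX cells, with intervals that include 0. The lists differ in their number of regions, with 9534 in XY progenitors and 13105 in Sertoli cells, and 7805 in XX progenitors and 10939 in pregranulosa cells. This can move a rank by itself, so these values do not say whether the regions widened.

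The H3K4me3 regions of the members changed in opposite directions in base pairs in the sexes, which brought their widths closer, since the XX progenitor regions had been the wider. The median log2 ratio was 0.14 (0.12 to 0.16) in the XY cells, against 0.22 over all 15998 promoters with H3K4me3 at both stages. It was -0.14 (-0.15 to -0.13) in the XX cells, against -0.02 over 16893 promoters. In both sexes the members thus stood below promoters in general. In the XY cells 2190 members (60.4%) widened, with a background of 70.2%, and in the XX cells 1134 (31.3%), with a background of 46%. At least a doubling was seen at 175 members (4.83%) in the XY cells, with a background of 5.67%, and at 28 (0.773%) in the XX cells, with a background of 1.78%. A fall of at least 2-fold was seen at 128 members (3.53%, background 1.36%) in the XY cells and at 189 (5.22%, background 2.67%) in the XX cells. Of these, 49 and 51 were ribosomal RNA genes, and 51 of the 56 members of that kind lie in a single repeat array. Among protein-coding members there were 67 falls in the XY cells (2.24%) and 106 in the XX cells (3.54%), against 0.549% and 1.15% of the 10384 other protein-coding promoters with H3K4me3 in all 4 populations. Ranked within its own list, the median member region fell by 2.52 percentile points (1.97 to 2.89 points) in the XY cells, where the change in base pairs had been a rise, and by 1.07 points in the XX cells. Over all promoters with the mark at both stages the rank changes were -0.56 and 0.725 points. These lists also differ in number, with 36828 regions in XY progenitors, 38056 in Sertoli cells, 40878 in XX progenitors and 43367 in pregranulosa cells, and the part of this in the rank changes was not tested.

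The stages could not be compared at matched depth. At E10.5 the XX lists rest on several times the tags of the XY lists, and the members' H3K4me3 regions were wider in XX than in XY progenitors by a median log2 ratio of 0.46, against 0.40 over all promoters with the mark in both. H3K27me3 differed by 0.03 there. At E13.5 the pregranulosa over Sertoli ratio was 0.16 for H3K4me3 and -0.06 for H3K27me3. The part of depth in the width differences was not tested, and for pregranulosa cells it cannot be told apart from the population.

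Changes in the same direction in both sexes were more common than opposite ones for H3K27me3. Widening in both sexes was seen at 2128 members (58.7%), with a background of 60.6%, members included, and a share of 68.5% over the 834 other promoters with H3K27me3 in all 4 populations. At least a doubling in both was seen at 91 (2.51%, background 3.43%, others 7.43%) and a fall of at least 2-fold in both at 27 (0.745%, background 0.718%). For H3K4me3, 1391 members (38.4%) widened in the XY and narrowed in the XX cells, close to the 34.6% of all promoters with the mark in all 4 populations. In the same direction, 1029 members (28.4%) narrowed in both sexes, with a background of 17.6%, while 796 (22.0%) widened in both, with a background of 35.6%, and 1 at least doubled in both, with a background of 0.46%. A fall of at least 2-fold in both sexes was seen at 78 members (2.15%), with a background of 0.75%. Of these 78, 49 were ribosomal RNA genes, and without them 29 of 3567 members (0.813%, 0.545% to 1.17%) remain, against 41 of 12233 other promoters that are not ribosomal RNA genes (0.335%, 0.241% to 0.454%). Among protein-coding members it was 22 (0.734%, 0.461% to 1.11%), against 0.250% (0.164% to 0.367%) of the other protein-coding promoters with H3K4me3 in all 4 populations. Such falls were thus more frequent at members, and this difference was not tested. The log2 changes of both marks ran weakly against each other across members, with Spearman's rho of -0.15 in the XY and -0.16 in the XX cells.

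The genes with the largest changes shared by both sexes belong to several functions. For H3K4me3 falls, the protein-coding members at the head included Hoxa9, Gata2, Hoxc8, Hand2 and Foxd2, all transcription factors. Hand2, a factor of heart, limb and mesenchyme, went from 8850 bp in XY and 11150 bp in XX progenitors to 1576 bp in Sertoli and 3002 bp in pregranulosa cells. Foxd2, a forkhead factor of kidney stroma, went from 10994 and 14844 bp to 3448 and 3176 bp, while its H3K27me3 region went from 24853 and 22141 bp to 65734 and 41901 bp. For H3K4me3 rises the head was held by Kcnh1, Etfa, Exoc3l, Cldn26, Rarres1 and Klf2. Kcnh1, a potassium channel gene, went from 1303 and 2157 bp to 4229 and 4444 bp. Klf2, a transcription factor of endothelium and quiescent cells, went from 1255 and 2796 bp to 3627 and 4931 bp.

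For H3K27me3 rises, the head included Tppp3, Kctd19, Hoxd1, 6430571L13Rik and Peli2. Tppp3, a tubulin-binding protein gene, went from 6279 bp in XY and 7513 bp in XX progenitors to 71909 bp in Sertoli and 72263 bp in pregranulosa cells. Kctd19, a gene of male meiosis, lies in the same E13.5 regions and went from 9279 and 11693 bp. Peli2, an adaptor of innate immune signalling, went from a single 5001 bp region in both progenitors to 24949 and 25572 bp. For falls, the head included 4932443L11Rik, Ccr10, 1700101E01Rik, Hspa1b and Pcsk4. Ccr10, a chemokine receptor gene, went from 26526 and 29902 bp to 9061 and 8949 bp. Hspa1b, an inducible heat shock protein gene, went from 23723 and 21287 bp to 8021 and 7529 bp, so its region had nearly the same width in both sexes at each stage. The rises at Hoxd1, Tppp3 and Kctd19 came with a region that reached other members at E13.5.

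Within the windows the marks lay on top of each other. The H3K4me3 region was wholly inside the H3K27me3 region at 88.2% of members in XY progenitors, 87.9% in XX progenitors, 87.5% in Sertoli cells and 87.8% in pregranulosa cells. No base lay under both marks at 69, 32, 60 and 26 members in the same order, although these windows met the rule. The rule required both marks in a window of 4001 bp, and H3K27me3 regions are at least 5001 bp wide, so this nesting is in part set by the choice. H3K27me3 covered the whole window at 76.9%, 83.4%, 84.2% and 84.8% of members. At promoters bivalent in the same population but not in all 4 it did so at 45.7%, 55.8%, 49.5% and 60.2%. The TSS base was under both marks at 82.8%, 90.8%, 84.9% and 87.7% of members, and at 2776 members (76.6%, 75.2% to 78.0%) it was so in all 4 populations. The H3K27me3 region reached a little further into the gene than away from it, with medians of 5145 bp downstream and 4561 bp upstream of the TSS in XY progenitors and 6597 and 6013 bp in Sertoli cells. H3K4me3 did the same, with 1238 bp downstream and 758 bp upstream in XY progenitors.

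The 4 populations had much of each region in common. Bases under H3K27me3 in all 4 had a median of 8003 bp per member, inside a union of 15169 bp, and the median share was 59.6% (58.7% to 60.3%). For H3K4me3 the common bases had a median of 1764 bp inside a union of 3234 bp, a share of 55.8%. At 439 members the common H3K27me3 bases were at least 80% of the union, and at 7 members the populations had no H3K27me3 base in common.

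Members tended to have a region to themselves. The 3623 members lay in 2786 H3K27me3 regions in XY progenitors, and 60.0% of members were alone in theirs, with 60.3%, 59.4% and 60.4% in XX progenitors, Sertoli and pregranulosa cells. The region with the most members, chr8:126059211-126154336 in XY progenitors, held 51, all of them copies of 5S ribosomal RNA genes. The same repeat array held the widest H3K4me3 region of members in each population, at 77849, 87714, 23756 and 33631 bp. The next, chr4:88415338-88455908, held 16 members of the interferon zeta gene cluster. Unlike the Hox regions, these were repeated genes of nearly the same sequence, where the placing of reads is uncertain, and the part of this was not tested.

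Non-coding genes supplied 626 members. LincRNA genes gave 233 of 1232 (18.9%), processed transcripts 155 of 2437 (6.36%), pseudogenes 75 of 4055 (1.85%) and microRNA genes 69 of 1468 (4.70%). At 326 of the 626 (52.1%) the window overlapped that of a protein-coding member, so much of the non-coding set shares its marks with a coding neighbour. Protein-coding members came from longer genes than protein-coding genes at large, with a median length of 25.7 kb against 15.5 kb. This was not particular to them, since protein-coding genes bivalent in both progenitors that left the set had a median of 23.7 kb and those with H3K4me3 alone in all 4 populations 21.7 kb.

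The DNA of the members was rich in CG. In the 1001 bases around the TSS the median GC content was 60.0% and the median ratio of observed to expected CG was 0.647. A window with at least 50% GC and a ratio of at least 0.6 was called CpG-rich, and 2141 members (59.1%, 57.5% to 60.7%) were so, against 31.1% of all promoters. Promoters with H3K4me3 alone in all 4 populations were CpG-rich at 72.0% and those bivalent in both progenitors that left the set at 57.0%. Promoters with H3K27me3 alone were so at 0.602%, and those with neither mark at 0.245%. CG content thus went with the presence of H3K4me3 and did not set members apart from promoters that later lost a mark. Within the members it went with the position of H3K4me3. The TSS lay inside the H3K4me3 region at 96.2% of CpG-rich members in XY progenitors and at 73.3% of the others.

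Over the 200 bases upstream, a CG was found at 98.8% of members and 86.0% of all promoters, with a median of 12 CG per member and 4 over all promoters. The motif TATAAA, searched on both strands, was found at 5.69% of members and 11.9% of all promoters. Promoters that were bivalent in both progenitors and left the set were much like the members, with a CG at 98.0%, a median of 11 and TATAAA at 5.56%, as were those with H3K4me3 alone, with 98.4%, 13 and 4.39%. The sequences below, from the mm9 genome, run 5′ to 3′ on the strand of the gene with each CG in capitals, and are shown to compare members of the ovary list with promoters that had 1 mark or none. Foxl2 (chr9:98855826-98856025, plus strand, 19 CG), Lef1 (chr3:130813189-130813388, plus strand, 24 CG) and Irx3 (chr8:94325554-94325753, minus strand, 10 CG) are members. Tbp (chr17:15636652-15636851, plus strand, 11 CG), the TATA-binding protein gene, had H3K4me3 alone in all 4 populations. Cyp26b1 (chr6:84543741-84543940, minus strand, 7 CG), an enzyme that degrades retinoic acid, had H3K27me3 alone at its annotated start, and 1110025L11Rik (chr16:89064190-89064389, minus strand, 0 CG) had neither mark and carries TATAAA. Foxl2 and Lef1 have more CG in this stretch than each of the other 3 promoters, and Irx3 has 1 fewer than Tbp. Ovary members not shown range from fewer to more, with 5 CG at Msx2, 7 at Wnt5a and 33 at Wnt2b.
Foxl2: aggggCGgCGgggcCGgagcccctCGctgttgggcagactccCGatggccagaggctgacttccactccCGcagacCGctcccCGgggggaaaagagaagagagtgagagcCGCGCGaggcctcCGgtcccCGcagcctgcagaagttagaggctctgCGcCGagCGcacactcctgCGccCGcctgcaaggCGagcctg
Lef1: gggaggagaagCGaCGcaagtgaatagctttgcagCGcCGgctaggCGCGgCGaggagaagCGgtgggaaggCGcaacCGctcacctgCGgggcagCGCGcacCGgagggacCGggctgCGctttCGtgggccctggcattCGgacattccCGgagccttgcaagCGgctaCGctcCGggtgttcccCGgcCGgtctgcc
Irx3: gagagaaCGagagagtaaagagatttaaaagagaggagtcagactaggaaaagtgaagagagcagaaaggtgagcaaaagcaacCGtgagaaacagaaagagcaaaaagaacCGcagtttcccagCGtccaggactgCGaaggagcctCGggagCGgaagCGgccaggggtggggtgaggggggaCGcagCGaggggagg
Tbp: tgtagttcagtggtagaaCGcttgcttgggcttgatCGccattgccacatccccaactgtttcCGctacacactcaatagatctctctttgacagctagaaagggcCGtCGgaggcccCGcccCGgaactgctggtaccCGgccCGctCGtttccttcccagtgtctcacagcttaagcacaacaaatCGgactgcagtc
Cyp26b1: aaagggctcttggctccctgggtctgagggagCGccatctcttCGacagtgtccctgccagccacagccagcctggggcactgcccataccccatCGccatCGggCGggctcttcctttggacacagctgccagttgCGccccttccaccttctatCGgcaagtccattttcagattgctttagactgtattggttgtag
1110025L11Rik: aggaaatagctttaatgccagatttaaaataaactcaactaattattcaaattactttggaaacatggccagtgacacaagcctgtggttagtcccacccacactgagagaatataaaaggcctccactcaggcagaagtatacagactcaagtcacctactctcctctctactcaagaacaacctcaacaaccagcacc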

How the data were processed

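The 8 deposited peak lists, 1 per mark and population, were used, with H3 entering only as the authors' control. Per the file headers and methods, the authors used Bowtie for alignment to mm9 and HOMER for peaks in histone style (peak size 1000 bp for H3K4me3, 5000 bp for H3K27me3). The values used, of the kind recorded as other, are the peak starts and ends that the authors deposited. The score that the authors deposited in 6 lists is the same in every peak and was not used, so enrichment levels were not analysed here. Overlapping peaks were joined, because 3 H3K27me3 lists hold overlapping windows and the pregranulosa list is already joined. Windows lie around the 5′ end of each GENCODE M1 gene, so promoters of other transcripts are missed. Shares have Clopper-Pearson and medians order-statistic 95% intervals. Python 3.11.15, numpy 2.4.6 and scipy 1.17.1 were used, and the steps were tested on simulated data. Gene lists are symbol patterns, and sex-specific gene names come from the study's supplement. Genes were named by rule as members of the pathway lists, the 2 members of each list whose narrowest H3K27me3 region was widest, the 6 protein-coding members with the largest changes of the same sign in both sexes, and the 3 on each side of the edge of the rule. Cbx2, the other pathway genes, and genes with opposite changes in the sexes were named after their values were seen. Members and lists were chosen with earlier results of these data known.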

Additional observations from a re-analysis of the deposited data

Results flagged for a closer look

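The median log2 ratio of H3K4me3 width from E10.5 to E13.5 had opposite signs in the sexes, at 0.14 in the XY and -0.14 in the XX cells. The difference was not tested, and ranks within lists of different length fell in both. At 13 members H3K27me3 at least doubled in width in 1 sex and fell at least 2-fold in the other. Of these, 8 widened in the XY cells (0.221% of members) and 5 in the XX cells (0.138%). Over all 4457 promoters with H3K27me3 in all 4 populations the shares were close to these, at 0.224% and 0.157%. At 10 members (0.276%) H3K4me3 at least doubled in 1 sex and fell at least 2-fold in the other, all 10 widening in the XY cells. Among all 15869 promoters with H3K4me3 in all 4 populations there were 28 (0.176%), which also all widened in the XY cells. These differences were not tested. Faim, a gene beside Foxl2, shows how a shared region counts here, with H3K27me3 regions of 5001 bp in XY progenitors, 40185 bp in XX progenitors, 40986 bp in Sertoli cells and 5001 bp in pregranulosa cells, where the wide values are those of the Foxl2 region. On chromosome X, outside the rule, 77 of 2599 windows were bivalent in all 4 populations. The counts there were 117 in XY progenitors, 536 in XX progenitors, 98 in Sertoli cells and 460 in pregranulosa cells, and the difference between the sexes was not tested.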

How the results depend on the processing

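No paired analysis was possible because there is 1 list for each mark and population, so leaving out a replicate could not be run either. The count of members was 2394 among windows that overlap no other and lay within 1.5 times 3623 under the other alternatives, including 3842, 3692, 4145 and 3861 when each population in turn was not required, an alternative chosen after seeing the data. The share of progenitor bivalent promoters that were members was 70.4% with the widest 75% of regions and 62.2% with equal numbers of regions. Ranking widths within each list gave H3K27me3 changes of -0.123 points in the XY and -0.173 points in the XX cells, with intervals that include 0, reversed the XY H3K4me3 change to -2.52 points, and gave -1.07 points for XX H3K4me3. Lists of different length can differ in rank by that alone, and the cause was not tested. The XY H3K27me3 log2 ratio was 0.37 with equal numbers, 0.35 for windows that overlap no other and 0.36 with 1 member per region. It was 0 with peaks not joined, where 5001 bp windows are compared with each other, and the XX ratio was then 1.21, since the pregranulosa list alone is joined. The XX ratio was 0.17 for windows that overlap no other and 0.18 with 1 member per region. The XY H3K4me3 ratio was 0.12 with the widest 75%, 0.11 with equal numbers and 0.11 with peaks joined across 1 kb, and the XX ratio was -0.16 with equal numbers. The H3K27me3 bases common to the populations were 61.5% with the widest 75%, 61.1% with equal numbers, 58.6% with peaks joined across 1 kb, 55.6% with peaks not joined and 58.6% with 1 member per region. The share with the TSS under both marks was 79.6% with 500 bp of overlap, 83.2% within 1 kb of the TSS, 79.3% with the widest 75%, 79.0% for protein-coding genes and 79.0% for windows that overlap no other. The CpG-rich share was 61.3% within 1 kb, 62.6% with the widest 75% and 61.1% for protein-coding genes. Depth differs between lists and is unknown for pregranulosa cells, which limits every comparison of widths.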
